A study of Mus musculus with 10 samples.

Results

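Cytochrome P450 families 2 to 4 were examined in the lungs of mice exposed to cigarette smoke or to room air. The members were the genes of the array whose name in the scanner files, or whose current symbol found through the accession in those files, belongs to these families, except Cyp2f2. The rule gave 54 genes, measured by 80 probes, among the 27670 genes of the array, and 4 of the 54 were found through their accession alone. By family, 35 members belonged to family 2, 6 to family 3 and 13 to family 4, in 16 subfamilies.

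Whole lungs came from 10 female mice of BALB/c, an inbred laboratory strain, received at 6 to 8 weeks of age, with 1 mouse per array and 5 mice per group. Mice of the smoke group inhaled the smoke of 12 cigarettes per exposure, in sessions of 50 minutes held 2 times a day on 5 days of the week, over 8 weeks, and mice of the other group breathed room air over the same period. Each scanner file holds a red and a green channel, although the labels list only 1 dye. In red, the lung genes Sftpc, Scgb1a1 and Ager exceeded green by 6.39, 6.72 and 4.83 on the log2 scale, and the Y chromosome genes Ddx3y, Eif2s3y and Kdm5d were below green by a difference of -6.95, -7.00 and -4.06, so red was read as female lung RNA, and green as a reference pool with male RNA in it.

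Cytochromes P450 are haem enzymes of the endoplasmic reticulum that insert an oxygen atom into their substrates with electrons passed on by the reductase Por. Enzymes of families 2 and 3 oxidise drugs, smoke constituents, steroids and unsaturated fatty acids, and enzymes of family 4 mostly hydroxylate fatty acids and eicosanoids at the end of their carbon chain. In the lung, club cells, alveolar type 2 cells, endothelium and leukocytes each carry some of these enzymes, and several of them activate inhaled toxicants.

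A gene was called detected on an array when the scanner software marked its red signal as well above background. Of the 54 members, 32 (59.3%) were detected on all 10 arrays, 15 on 1 to 9 arrays and 7 on 0 arrays, beside 62.0% of all 27669 genes tested on all 10 arrays. The 7 were Cyp2a12, Cyp2c38, Cyp2d13, Cyp2d34, Cyp2j5, Cyp3a25 and Cyp3a44, several of which are known from liver or kidney, and 6 of them had no probe detected on any array. Over the array, 67.1 to 76.1% of the probes were well above background in the room air lungs and 64.0 to 76.9% in the smoke-exposed lungs, with a median red signal of 1.81 to 2.46 and 1.68 to 2.82 times the background. Precision is limited by the number of arrays.

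**Figure D1:**
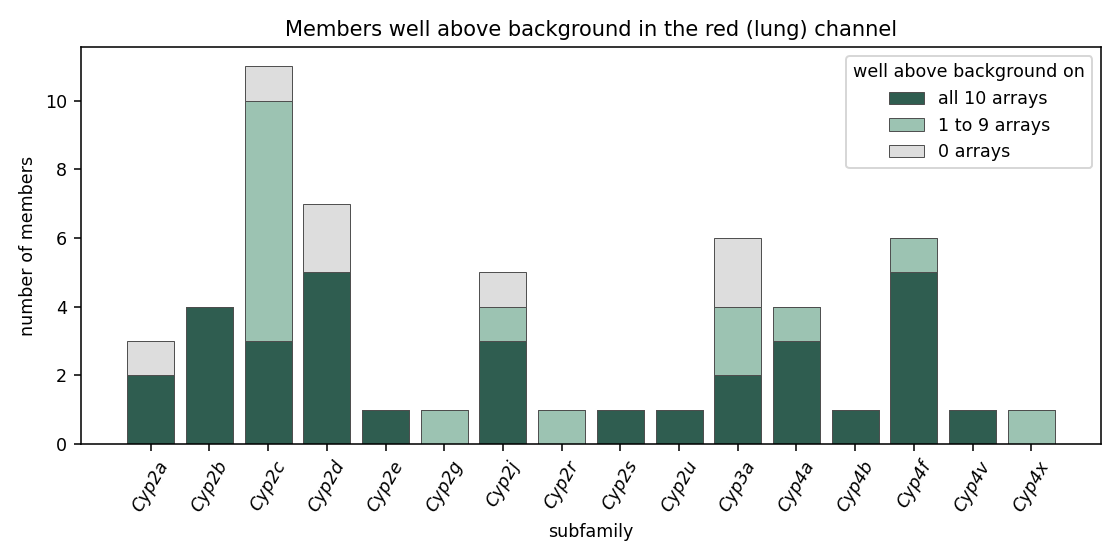
Number of members (vertical axis) in each of the 16 subfamilies (horizontal axis), divided by the number of arrays on which the red signal was well above background. All 4 Cyp2b members were detected on all 10 arrays, and 3 of the 11 Cyp2c members were. Cyp2b13 and Cyp2c37 are counted there through shared probes, and their own probes were detected on 9 and 5 arrays.

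The subfamilies differed in how many members were detected. All 4 members of Cyp2b, which hold enzymes inducible by phenobarbital-like compounds, were detected on all 10 arrays, as were 5 of 6 members of Cyp4f, 5 of 7 of Cyp2d, 3 of 4 of Cyp4a, 3 of 5 of Cyp2j and 2 of 3 of Cyp2a. Some of these counts rest on shared probes: the probe of Cyp2b13 is listed for 3 genes and that of Cyp4a31 also for Cyp4a10, and the probes listed for Cyp2b13 and Cyp4a31 alone were detected on 9 and 0 arrays. Cyp2a4, Cyp2d9 and Cyp4a12a have shared probes only. In Cyp2c, the largest subfamily here with 11 members, 3 were detected on all 10 arrays and 7 on 1 to 9 arrays. Among the 3, Cyp2c37 is counted through a probe also listed for Cyp2c50. The probe listed for Cyp2c37 alone was detected on 5 arrays. In Cyp3a, whose members include the main drug-oxidising enzymes of mouse liver, Cyp3a11 and Cyp3a13 were detected on all 10 arrays and the other 4 were not. The only probe of Cyp3a11 is also listed for Cyp3a41a and Cyp3a44, both among the other 4, and cannot tell these genes apart. The sole members of Cyp2e, Cyp2s, Cyp2u, Cyp4b and Cyp4v were detected on all 10 arrays, and those of Cyp2g, Cyp2r and Cyp4x on fewer, namely 2, 6 and 7 arrays. By family, 20 of 35 members of family 2, 2 of 6 of family 3 and 10 of 13 of family 4 were detected on all 10 arrays. This count says which probes rose above the local background and does not rank the genes, since probes differ in brightness.

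The number of members detected per array did not separate the groups. It was 36, 33, 40, 42 and 40 in the room air lungs (mean 38.2 ± 3.63, SD, n = 5) and 38, 36, 35, 43 and 33 in the smoke-exposed lungs (37.0 ± 3.81, SD, n = 5). The groups overlapped, with the highest number on smoke array 4 and the lowest on room air array 2 and smoke array 5. A two-sided exact permutation test over the 10 arrays, which did not pair them by replicate number, gave p = 0.667. The smallest p this unpaired test allows is 0.00794.

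Smoke and room air were compared on the log2 ratio of red lung signal over green reference signal, called the log2 ratio here, and a difference is the smoke mean minus the room air mean. Every direction rests on the scanner files as assigned to the samples, because the groups are exchanged in the deposited table of values. With this assignment Cyp1b1 and Ahrr, outside the members, were higher in smoke by 3.06 and 1.96. Each difference was tested with limma across all 41173 probes, with Benjamini-Hochberg adjustment and a threshold of 0.05 on the adjusted p, and where a gene had several probes the brightest in red stood for it. Of the 54 members, 5 passed, 2 higher and 3 lower in smoke, beside 8.23% of all genes tested (4.96% higher and 3.27% lower) and 7.06% of the probes. Of the 32 members detected on all 10 arrays 4 passed, against 12.9% of all such genes, so in this fit the share of members that changed was near the background. At an unadjusted p under 0.05 there were 13 members (24.1%), beside 5524 of all 27669 genes tested (19.96%). The exact Wilcoxon test could decide nothing here, since its lowest adjusted p over all genes was 0.115. The median difference was -0.02 over the members and -0.00415 over all genes, with 46.3% and 48.1% of them higher in smoke. Those that rose were Cyp4v3 and Cyp4f16 of family 4, and those that fell were Cyp2d22, Cyp2j9 and Cyp2c23 of family 2.

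Each slide held the smoke array and the room air array of 1 replicate number, and deviations from the group means were shared within a slide, with a correlation over probes of 0.157, 0.460, 0.461, 0.550 and 0.415 in the 5 slides and a median of -0.124 and a highest value of 0.205 between slides, which the first slide did not exceed. Genes are not independent replicates, so no p is given for these correlations. With the slide fitted as a block, 12 of the 54 members passed, 7 higher and 5 lower, beside 13.8% of all genes, and the 5 named above were among them. At an unadjusted p under 0.05 the block fit had 27.8% of the members and 26.1% of all genes. The groups did not overlap in 4 members, Cyp4v3 and Cyp4f16 on the higher side and Cyp2d22 and Cyp2c23 on the lower side, against 7.89% of all genes. A fold change over 1.5 was reached by 1 member that passed without the block, Cyp2d22, beside 2.41% of all genes, and by 3 that passed with it, Cyp2d22, Cyp2a4 and Cyp2a5, beside 2.68%. The choice of scaling changed the balance of the calls over all genes, from 60.2% of them higher in smoke to 48.6% when arrays were centred on their median in place of loess. With that centring 0 members passed as higher by limma and 4 as lower, beside 4.14% of all genes (557 higher and 588 lower), and 10 members (18.5%) and 16.2% of all genes were at an unadjusted p under 0.05.

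**Figure D2:**
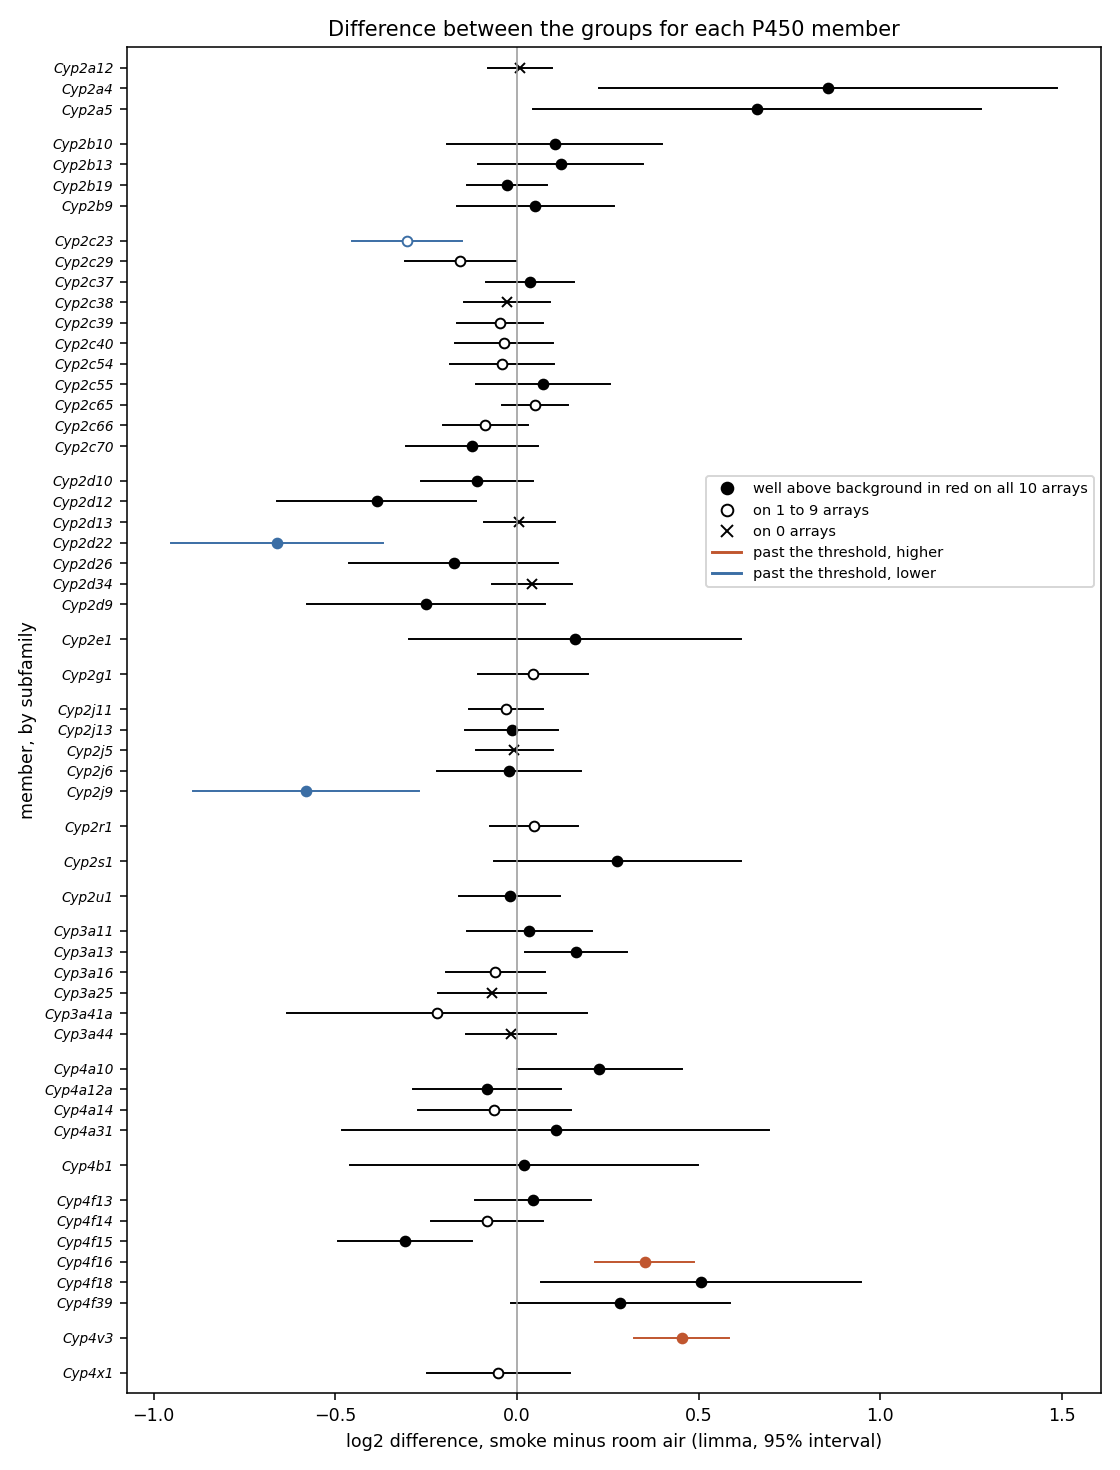
Difference of the log2 ratio, smoke minus room air (horizontal axis), of the 54 members ordered by subfamily (vertical axis), with 95% intervals from limma. Filled, open and crossed points mark detection in red on all 10, 1 to 9 and 0 arrays, and the coloured points are Cyp4v3 and Cyp4f16, which rose, and Cyp2d22, Cyp2j9 and Cyp2c23, which fell. Over 21 or 22 alternatives tested by limma, the deposited table not among them, these calls were lost in 1, 3, 1, 9 and 7.

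Within family 4, Cyp4v3 and Cyp4f16 rose. Cyp4v3 is the mouse counterpart of human CYP4V2, a fatty acid hydroxylase whose loss causes a crystalline disease of the retina, and Cyp4f16 belongs to a subfamily that hydroxylates leukotrienes and long fatty acids. The first 30 bases of their 60-base array probes, read from the files, are shown 5′ to 3′ in lower case without capitals, since they identify the transcript stretch measured. The probe of Cyp4v3 lies at chr8:44091596-44091655 on the minus strand and that of Cyp4f16 at chr17:30749685-30749744 on the plus strand, both of build mm7.
Cyp4v3 probe: tgtggaagtcaagaccgtgattggatgagt
Cyp4f16 probe: ttgccaatcccagaataagcggagtttcac

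The log2 ratio of Cyp4v3 was 2.45, 2.56, 2.48, 2.27 and 2.35 in the room air lungs and 2.88, 2.90, 2.96, 2.81 and 2.82 in the smoke-exposed lungs. Every smoke value lay above every room air value, and the values within each group were close together. The mean was 2.42 ± 0.11 with room air and 2.87 ± 0.06 with smoke (SD, n = 5), a difference of 0.45 (SE 0.06), or 1.37-fold, with adjusted p = 0.000849. Within the 5 slides the difference was 0.43, 0.34, 0.48, 0.54 and 0.47, and with the slide as a block the adjusted p was 0.000765. Cyp4v3 kept its call without any 1 of the 10 arrays and lost it with median centring, where the difference was 0.36 and the adjusted p 0.0768.

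Cyp4f16 had a log2 ratio of 0.13, 0.32, 0.12, 0.37 and 0.30 with room air and 0.62, 0.51, 0.58, 0.70 and 0.59 with smoke. The groups did not overlap, and room air arrays 1 and 3 were lower than the other room air arrays. The means were 0.25 ± 0.12 and 0.60 ± 0.07 (SD, n = 5), a difference of 0.35 (SE 0.06), or 1.28-fold, with adjusted p = 0.00496 and, with the slide as a block, 0.0055. All 5 slides were higher in smoke, by 0.49, 0.19, 0.46, 0.33 and 0.29. The probes of this gene did not give the same call: the dimmer one differed by 0.15 with adjusted p = 0.326. With median centring the difference was 0.25 and the adjusted p 0.387, and in red alone it was 0.34 with adjusted p = 0.0509 after quantile normalization and 0.35 with 0.113 at the 75th percentile.

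Within family 2, Cyp2d22, Cyp2j9 and Cyp2c23 fell. Cyp2d22 is regarded as the nearest mouse counterpart of human CYP2D6, an enzyme of drug oxidation, Cyp2j9 hydroxylates arachidonic acid, and Cyp2c23, named Cyp2c44 in the scanner files, makes epoxides of arachidonic acid. The first 30 bases of each 60-base probe are printed in lower case, again to identify the stretch measured. In build mm7 these probes lie on the minus strand at chr15:82459884-82459943 for Cyp2d22, chr4:95961197-95961256 for Cyp2j9 and chr19:43898918-43898977 for Cyp2c23.
Cyp2d22 probe: gttgctttccgattccagcatgcctgtaat
Cyp2j9 probe: aaattaaggtgacagagagtgcgtgcaatg
Cyp2c23 probe: ccacacacattttcctattctcacgtaaaa

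Cyp2d22 had a log2 ratio of 3.19, 3.03, 2.72, 2.83 and 2.42 with room air and 2.14, 2.25, 2.32, 2.28 and 1.91 with smoke. The groups did not overlap, although the lowest room air array was close to the highest smoke array. The mean fell from 2.84 ± 0.30 to 2.18 ± 0.16 (SD, n = 5), a difference of -0.66 (SE 0.13), or 1.58-fold lower, with adjusted p = 0.0111 and, with the slide as a block, 0.00324. Every slide was lower in smoke, by -1.06, -0.79, -0.40, -0.54 and -0.51. This probe was designed on a cDNA clone, as was the next brightest probe of the gene. Neither that probe nor the dimmest passed, with differences of -0.26 (adjusted p = 0.487) and -0.22 (adjusted p = 0.293). By limma in red alone, after quantile normalization, the dimmest passed, at -0.32 (adjusted p = 0.0194). The next brightest did not pass in red (-0.33, adjusted p = 0.533). With the scanner software's own ratio the brightest probe had a difference of -0.53 and adjusted p = 0.0676, and with the mean of all probes of the gene the difference was -0.38, past the threshold.

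For Cyp2j9 the log2 ratio was 2.75, 2.91, 3.03, 2.32 and 2.70 with room air and 2.32, 2.09, 2.50, 1.96 and 1.94 with smoke. Room air array 4, the lowest of its group, was level with smoke array 1 and below smoke array 3, so the groups overlapped. The means were 2.74 ± 0.27 and 2.16 ± 0.25 (SD, n = 5), a difference of -0.58 (SE 0.14), or 1.49-fold lower, with adjusted p = 0.0302 and, with the slide as a block, 0.0024. All 5 slides were lower in smoke, by -0.42, -0.82, -0.52, -0.37 and -0.76. The call was lost when room air array 2, 3 or 5 was left out (adjusted p = 0.0756, 0.0742 and 0.056) or smoke array 2, 4 or 5 (0.0689, 0.0739 and 0.0828). It was also lost with the scanner software's ratio (difference -0.71, adjusted p = 0.3), without background subtraction (-0.59, 0.0733) and with ratios scaled between arrays (-0.47, 0.0718). By limma in red alone, after quantile normalization, the difference was -0.64 with adjusted p = 0.00104, and the groups did not overlap. The green signal of this probe, the denominator of the ratio, was well above background on 4 arrays.

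Cyp2c23 was detected on all 5 room air arrays and on 4 of 5 smoke arrays. Its log2 ratio was 0.06, 0.35, 0.27, 0.01 and 0.29 with room air and -0.11, -0.04, -0.13, -0.10 and -0.16 with smoke. The groups did not overlap, and room air arrays 1 and 4 were near the smoke values. The mean went from 0.20 ± 0.15 to -0.11 ± 0.04 (SD, n = 5), a difference of -0.30 (SE 0.07), or 1.23-fold lower, with adjusted p = 0.0214 and, with the slide as a block, 0.0175. The slides differed by -0.17, -0.39, -0.40, -0.10 and -0.45. Without room air array 2, 3 or 5 the adjusted p was 0.0505, 0.0567 and 0.053, and without smoke array 1, 3 or 5 it was 0.0525, 0.0512 and 0.0587, so each of these 6 arrays ended the call. It was also lost in red alone after quantile normalization (-0.32, adjusted p = 0.09), while the difference was -1.32 (0.00704) with the scanner software's ratio, which differs in several steps at once.

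**Figure D3:**
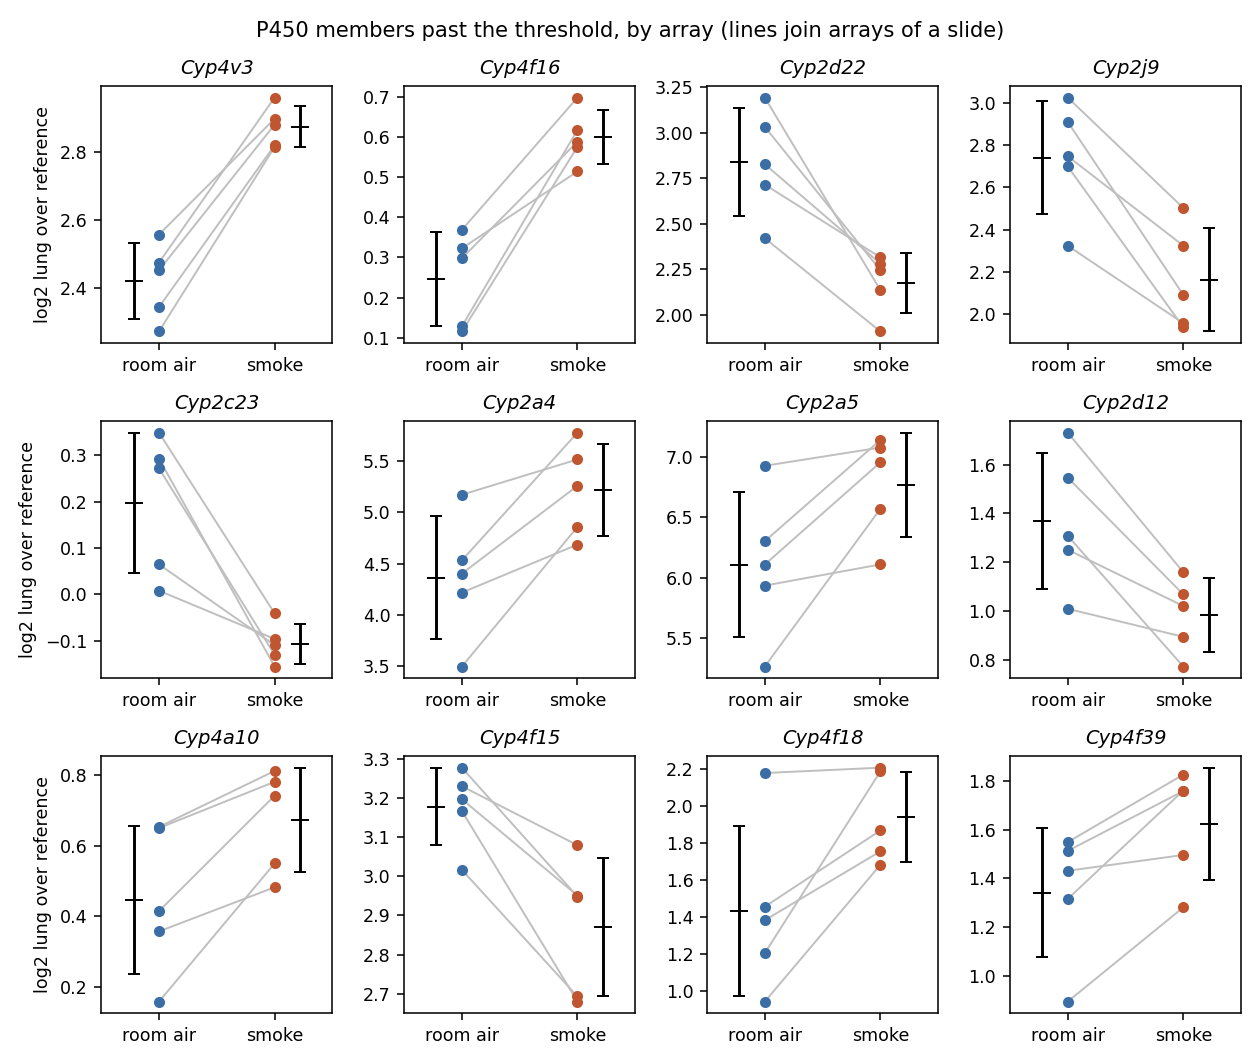
Log2 ratio of lung over reference (vertical axes) on each array with room air (blue) and smoke (orange), for the 5 members that passed and the 7 that passed with the slide as a block. Grey lines join the arrays of a slide, and the black marks show the mean and SD (n = 5). The 5 slides move the same way in each of the 12 panels.

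A further 7 members passed with the slide as a block and not without it, and in each of them all 5 slides differed in the same direction. They were Cyp2a4, Cyp2a5, Cyp4a10, Cyp4f18 and Cyp4f39 on the higher side and Cyp2d12 and Cyp4f15 on the lower side. Of 21 or 22 alternatives tested by limma, the block among them, Cyp4f15 passed in 8, Cyp2a4 and Cyp2a5 in 5 each and the other 4 in 2 each. The largest differences were those of Cyp2a4 and Cyp2a5, neighbours on chromosome 7 that encode a testosterone hydroxylase and an enzyme that oxidises coumarin and nicotine. The probe of Cyp2a4 is also listed for Cyp2a5, and the probes of both genes share a run of 28 bases and have overlapping positions. Their values therefore cannot be told apart with certainty, and counts that hold both genes may count the same signal for each. The 30 bases of each probe around that run are shown, with the shared bases in capitals. In build mm7 the Cyp2a4 probe lies at chr7:23212199-23212258 and the Cyp2a5 probe at chr7:23212221-23212279, both on the plus strand.
Cyp2a4 probe: tcGTAGACTTGCAGAGGATATTTCAAAGGT
Cyp2a5 probe: aGTAGACTTGCAGAGGATATTTCAAAGGTa

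The log2 ratio of Cyp2a4 was 5.17, 4.40, 4.53, 4.22 and 3.50 with room air and 5.52, 5.26, 5.78, 4.69 and 4.86 with smoke. Room air array 1 stood among the smoke values, and the groups overlapped. The difference was 0.86 (SE 0.29), or 1.81-fold, with adjusted p = 0.115 without the block and 0.00853 with it, and the slides differed by 0.34, 0.86, 1.25, 0.47 and 1.36. In red alone the difference was 1.15 with adjusted p = 0.0101, while green, whose RNA is the reference, differed by 0.25. Without room air array 1 the adjusted p of the ratio was 0.0233, and with the scanner software's ratio the sign turned, at -0.10 (adjusted p = 0.921). The other probe of Cyp2a4 differed by 0.57, with adjusted p = 0.111 and, with the block, 0.00498.

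The log2 ratio of Cyp2a5 was 6.92, 6.11, 6.30, 5.93 and 5.27 with room air and 7.07, 6.95, 7.14, 6.11 and 6.57 with smoke. As for Cyp2a4, room air array 1 was the highest and array 5 the lowest of the room air lungs, and the groups overlapped. The difference was 0.66 (SE 0.28), or 1.58-fold, with adjusted p = 0.235 and, with the block, 0.0341, and the slides differed by 0.15, 0.84, 0.84, 0.17 and 1.30. In red alone it was 1.06 (adjusted p = 0.027), beside 0.41 in green, and without room air array 1 the adjusted p of the ratio was 0.0493. With the scanner software's ratio the difference was -0.20 (adjusted p = 0.867). The other probe of Cyp2a5, listed for both genes, differed by 0.53, with adjusted p = 0.239 and, with the block, 0.0306. Cyp2a12, the third member of the subfamily, was detected on 0 arrays.

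Leukotriene and fatty acid hydroxylases of Cyp4f made up 3 of the 7. Cyp4f18, which inactivates leukotriene B4 in mouse neutrophils, had a log2 ratio of 2.18, 1.20, 1.45, 0.94 and 1.38 with room air and 2.21, 2.19, 1.87, 1.68 and 1.75 with smoke. Room air array 1 lay within the range of the smoke arrays, and the other 4 room air arrays lay below all of them. The difference was 0.51 (SE 0.20), or 1.42-fold, with adjusted p = 0.193, 0.033 with the slide as a block and 0.00784 without room air array 1, and the slides differed by 0.03, 0.98, 0.41, 0.74 and 0.37.

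Neutrophil markers were also high in room air array 1. Their summed red signal was 158018 there, against 30525, 23670, 24613 and 33881 in the other room air lungs and 65449, 50555, 39009, 43372 and 43988 in the smoke-exposed lungs, with S100a9 the brightest. Of the 9 markers measured, 8 were detected on all 10 arrays and 1, Mmp8, rose in smoke, or 2 with the slide as a block. Their part in the values of Cyp4f18 was not tested. In whole lung, fewer cells of a type and less RNA per cell cannot be told apart.

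Cyp4f39, the counterpart of the human enzyme that hydroxylates very long fatty acids for skin ceramides, had a log2 ratio of 1.31, 1.51, 1.55, 0.89 and 1.43 with room air and 1.76, 1.76, 1.83, 1.28 and 1.495 with smoke. Smoke array 4 lay below 4 of the room air arrays, so the groups overlapped. The difference was 0.28 (SE 0.14), with adjusted p = 0.314 and, with the block, 0.0205, and the slides differed by 0.45, 0.25, 0.28, 0.39 and 0.06. Without room air array 4 the difference was 0.17.

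Cyp4f15 differed in the other direction. Its log2 ratio was 3.23, 3.20, 3.28, 3.17 and 3.02 with room air and 3.08, 2.95, 2.95, 2.68 and 2.69 with smoke. The groups overlapped through room air array 5 and smoke array 1 alone. The difference was -0.31 (SE 0.08), with adjusted p = 0.0512 and, with the block, 0.0101, and the slides differed by -0.15, -0.25, -0.33, -0.49 and -0.32. Leaving out room air array 5 gave an adjusted p of 0.0404 and leaving out smoke array 1 gave 0.0286, while the scanner software's ratio gave a difference of 0.10 (adjusted p = 0.846). Of the other Cyp4f members, Cyp4f13 differed by 0.04 (adjusted p = 0.862) and Cyp4f14, detected on 2 arrays, by -0.08.

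Cyp2d12 had a log2 ratio of 1.25, 1.55, 1.73, 1.01 and 1.31 with room air and 1.02, 1.07, 1.16, 0.89 and 0.77 with smoke. Room air array 4 was the lowest of its group and lay among the smoke arrays. The difference was -0.39 (SE 0.12), with adjusted p = 0.0998, 0.0139 with the block and 0.0288 without room air array 4, and the slides differed by -0.23, -0.48, -0.57, -0.11 and -0.54. Apart from Cyp2d22, other Cyp2d members were not past the threshold with or without the block, among them Cyp2d9, a testosterone hydroxylase of male liver, with a difference of -0.25 (adjusted p = 0.45; 0.0878 with the block). The brightest probe of Cyp2d9 is listed for 3 genes and its dimmer probe for 2. Both are listed for Cyp2d22 too, so neither separates Cyp2d9 from that gene. The dimmer probe had a difference of -0.35 with adjusted p = 0.288 and, with the block, 0.0304.

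Cyp4a10, a fatty acid hydroxylase that responds to peroxisome proliferators, differed by 0.23 (SE 0.10), with adjusted p = 0.275 and, with the block, 0.0347, and by 0.41 (adjusted p = 0.0188) with the scanner software's ratio. Its log2 ratio was 0.65, 0.41, 0.65, 0.16 and 0.36 with room air and 0.78, 0.74, 0.81, 0.55 and 0.48 with smoke, and the groups overlapped. The slides differed by 0.13, 0.33, 0.16, 0.39 and 0.13. Its dimmer probes, detected on 4 arrays and 1 array, differed by -0.10 and -0.0090. Cyp4a12a, which hydroxylates arachidonic acid, differed by -0.08 (adjusted p = 0.767).

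The other 42 members passed in neither fit, and their differences ran from -0.25 to 0.28. Cyp2s1, an epithelial enzyme induced through the aryl hydrocarbon receptor, had the highest of these differences, 0.28 (SE 0.16), with adjusted p = 0.413. Its log2 ratio was 2.46, 3.42, 2.90, 3.01 and 3.00 with room air and 3.38, 3.44, 3.26, 3.17 and 2.91 with smoke, with room air array 2 among the highest of the 10, and the difference was 0.15 without room air array 1, the lowest. For comparison, the difference was 3.06 (adjusted p = 1.08e-07) for Cyp1b1 and 1.96 (adjusted p = 1.76e-06) for Ahrr, which are known targets of that receptor, 1.09 (adjusted p = 0.254) for Cyp1a1 and -0.07 for Cyp2f2, all outside the members. Cyp3a13 had a difference of 0.16 (SE 0.06), with adjusted p = 0.194 and 0.143 with the block, and all 5 slides were higher in smoke. Cyp3a11, the classic target of the pregnane X receptor, differed by 0.03 (adjusted p = 0.907), and no member of Cyp3a passed in limma, where 1 of the 6 was at an unadjusted p under 0.05.

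In Cyp2b, whose enzymes respond to the constitutive androstane receptor, 0 of 4 members passed in limma and 0 were at an unadjusted p under 0.05 by their brightest probe. That of Cyp2b13 is listed for 3 genes, and the dimmer probe, listed for Cyp2b13 alone, differed by 0.23 by limma, with adjusted p = 0.0508 and, with the block, 0.059. Cyp2b10 had a mean log2 ratio of 4.94 ± 0.30 with room air and 5.05 ± 0.17 with smoke (SD, n = 5), and its 95% interval for the difference of 0.10 ran from -0.19 to 0.40. Without room air array 4 the difference was 0.0072, and without room air array 3 it was 0.199. Cyp2b19, known from skin, differed by -0.03 (adjusted p = 0.883). Cyp2e1, which oxidises ethanol and small solvents, differed by 0.16 with an interval of -0.30 to 0.62, and its values were 2.06, 1.39, 1.85, 1.02 and 1.09 with room air and 1.61, 1.73, 2.09, 1.39 and 1.38 with smoke. The spread within either group was larger than the difference. That difference was 0.045 without room air array 4 and 0.305 without room air array 1. Cyp2j6 differed by -0.02 (adjusted p = 0.954), Cyp2u1, a hydroxylase of long fatty acids, by -0.02 (0.936), Cyp2r1, which hydroxylates vitamin D, by 0.05 (0.776), Cyp2g1, known from olfactory mucosa, by 0.04 (0.847) and Cyp4x1 by -0.05 (0.871). A p that misses the threshold does not show that the values did not differ.

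Room air array 5 stood apart in some of these members. Cyp2d26 had 0.65 on that array and -0.11 to 0.18 on the other room air arrays, and Cyp3a41a had 0.66 there and -0.51 to -0.18 on the others. Neither passed, with differences of -0.17 (adjusted p = 0.592; -0.04 without room air array 5) and -0.22 (adjusted p = 0.658). Hepatocyte markers were high on the same array, with a summed red signal of 3146 against 971, 969, 1525 and 1261 on the other room air arrays and 1139, 1020, 1045, 1258 and 1141 on the smoke arrays. Of 13 such markers 3 were detected on all 10 arrays, with Ahsg the brightest and Ttr and Cps1 detected on 0 arrays. By limma 0 passed, and 0 were at an unadjusted p under 0.05. Their part in the values of these members was not tested.

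**Figure D4:**
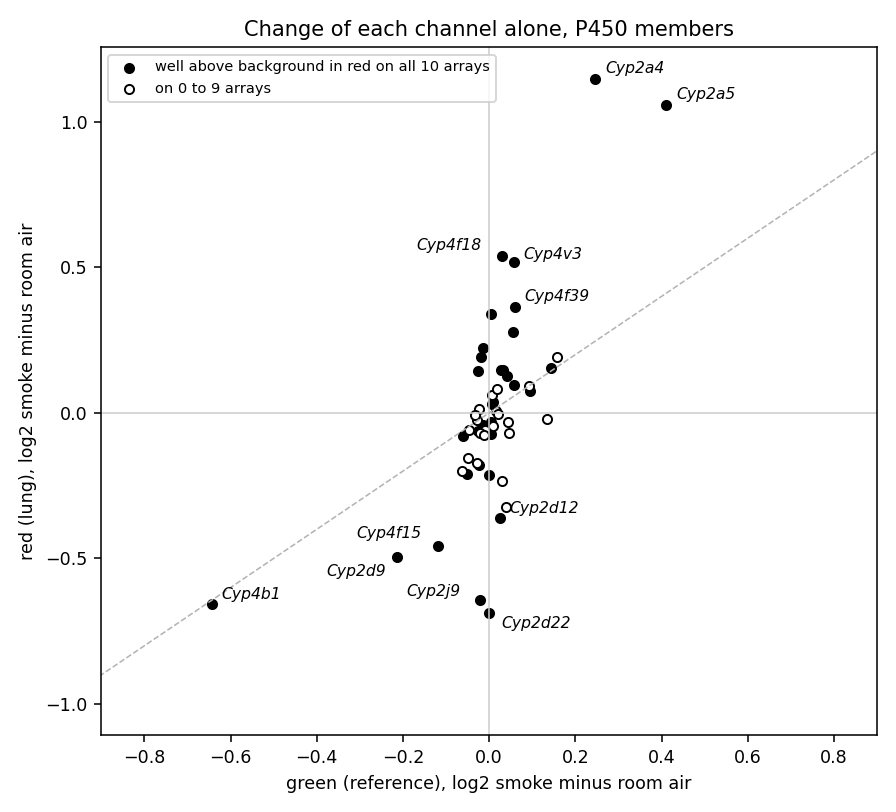
Difference of each member in the red lung channel alone (vertical axis) against its difference in the green reference channel alone (horizontal axis), both as log2 smoke minus room air after quantile normalization. Points on the dashed line have the same difference in both channels. Cyp4b1 lies close to that line at -0.66 in red and -0.64 in green, and Cyp2a4 and Cyp2a5 lie above it.

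The channels were also tested apart, since a ratio hides what both channels share. In red alone, after quantile normalization, 9 of the 54 members passed, beside 6.67% of all genes. At an unadjusted p under 0.05 red had 29.6% of the members and 17.4% of all genes. In green 0 passed by limma, with 6 members (11.1%) and 1.19% of all genes at an unadjusted p under 0.05. The 9 were Cyp2a4, Cyp2a5, Cyp4v3 and Cyp4f39 on the higher side and Cyp2d22, Cyp2j9, Cyp2d9, Cyp4b1 and Cyp4f15 on the lower side. Cyp4b1, an enzyme abundant in rodent lung that activates furan toxicants, had a ratio difference of 0.02 (adjusted p = 0.983). Its red log2 signal was 15.68, 16.12, 16.03, 15.90 and 15.73 with room air and 15.17, 15.29, 15.20, 15.47 and 15.05 with smoke, without overlap and with adjusted p = 0.00383. In green it was 9.38, 9.78, 9.41, 10.30 and 9.48 with room air and 8.81, 8.57, 8.95, 9.99 and 8.81 with smoke, where array 4 was the highest of both groups. By limma Cyp4b1 passed in red and not in green, with differences of -0.66 and -0.64, so its ratio does not show the lung signal alone. Why both channels were lower was not tested. Cyp2d9, whose probes are also listed for Cyp2d22, differed by -0.49 in red (adjusted p = 0.0107) and by -0.21 in green.

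Markers of lung cell types were examined as lists. Of 10 alveolar macrophage markers, all detected on all 10 arrays, 6 rose and 0 fell, and with the slide as a block 6 rose and Fabp1 fell (-0.66, adjusted p = 0.0628 without the block and 0.0111 with it). Their summed red signal was 42811, 43257, 48264, 42402 and 44545 with room air and 143319, 140789, 152896, 132141 and 141069 with smoke, 3.21 times as high on average, and the brightest was Chil3. In this sum the smoke arrays were all above the room air arrays. The same held for Cyp4v3 in the log2 ratio and in red alone, and for Cyp4f16 in the log2 ratio only. Red Cyp4f16 was 9.86 on room air array 2 and 9.81 on smoke array 3. In the log2 ratio the groups did not overlap in 7.89% of all genes, in either direction. The part of alveolar macrophages in the rise of Cyp4v3 or Cyp4f16 was not tested.

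The summed red signal of the endothelial markers was lower in smoke, with 136558, 149011, 168979, 155049 and 153895 with room air and 100905, 99382, 109819, 99569 and 101298 with smoke, and Cldn5, which did not pass, the brightest. Of the 10, all detected on all 10 arrays, Pecam1 and Ednrb fell and none rose, and with the slide as a block 4 fell. Their median difference was -0.15, and Car4, which did not pass, was also listed among the alveolar macrophage markers. Alveolar type 1 markers summed to 225478, 248802, 265145, 231181 and 247011 with room air and 173864, 164912, 185087, 172476 and 179620 with smoke, and of the 8, all detected on all 10 arrays, Cav1 fell and was the brightest, and with the block 3 fell, with a median difference of -0.16. In both lists the red sums did not overlap between the groups. The log2 ratios of Cyp2d22 and Cyp2c23 did not overlap either, but in red alone both genes overlapped. Red Cyp2d22 was 8.99 on room air array 3 and 9.01 on smoke array 4. Red Cyp2c23 was 6.35 on room air array 4 and 6.39 on smoke array 2. Cyp2j9, whose ratios overlapped, did not overlap in red. The part of endothelial and alveolar type 1 cells in the fall of Cyp2d22, Cyp2j9 and Cyp2c23 was not tested.

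Of 12 club cell markers 1, Krt15, rose, 5 were at an unadjusted p under 0.05 and 4 were higher with the slide as a block, with a median difference of 0.45. Their summed red signal with smoke was 1.01 times that with room air, with Scgb1a1 the brightest and room air array 1 the highest at 922093. Of 10 alveolar type 2 markers 0 passed by limma and 0 were at an unadjusted p under 0.05, 2 were higher with the block, and the summed ratio was 1.15. Of 9 ciliated cell markers 0 passed and 1 was at an unadjusted p under 0.05, 1 was higher with the block, and the summed ratio was 0.922. Of 8 adipocyte markers Cidec fell, and with the block 2 fell, with a summed ratio of 0.669, about that of the endothelial list, although room air array 5 lay below all smoke arrays in this sum.

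The enzymes depend on partner proteins, of which 39 were listed, and 8 of these passed, 7 higher and 1 lower. Over the array 8.23% of all genes passed, and 12.9% of those detected on all 10 arrays. Of 8 electron donors and membrane partners 0 passed by limma and 3 were at an unadjusted p under 0.05. Por, which passes electrons to all P450 enzymes of the endoplasmic reticulum, had a log2 ratio of 0.26, 0.90, 0.91, 0.96 and 0.94 with room air and 1.14, 1.30, 1.11, 1.16 and 0.97 with smoke. The groups did not overlap, and room air array 1 lay far below the others. The difference was 0.34 (SE 0.13), with adjusted p = 0.163 and, with the block, 0.0948, and it was 0.21 without room air array 1.

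**Figure D5:**
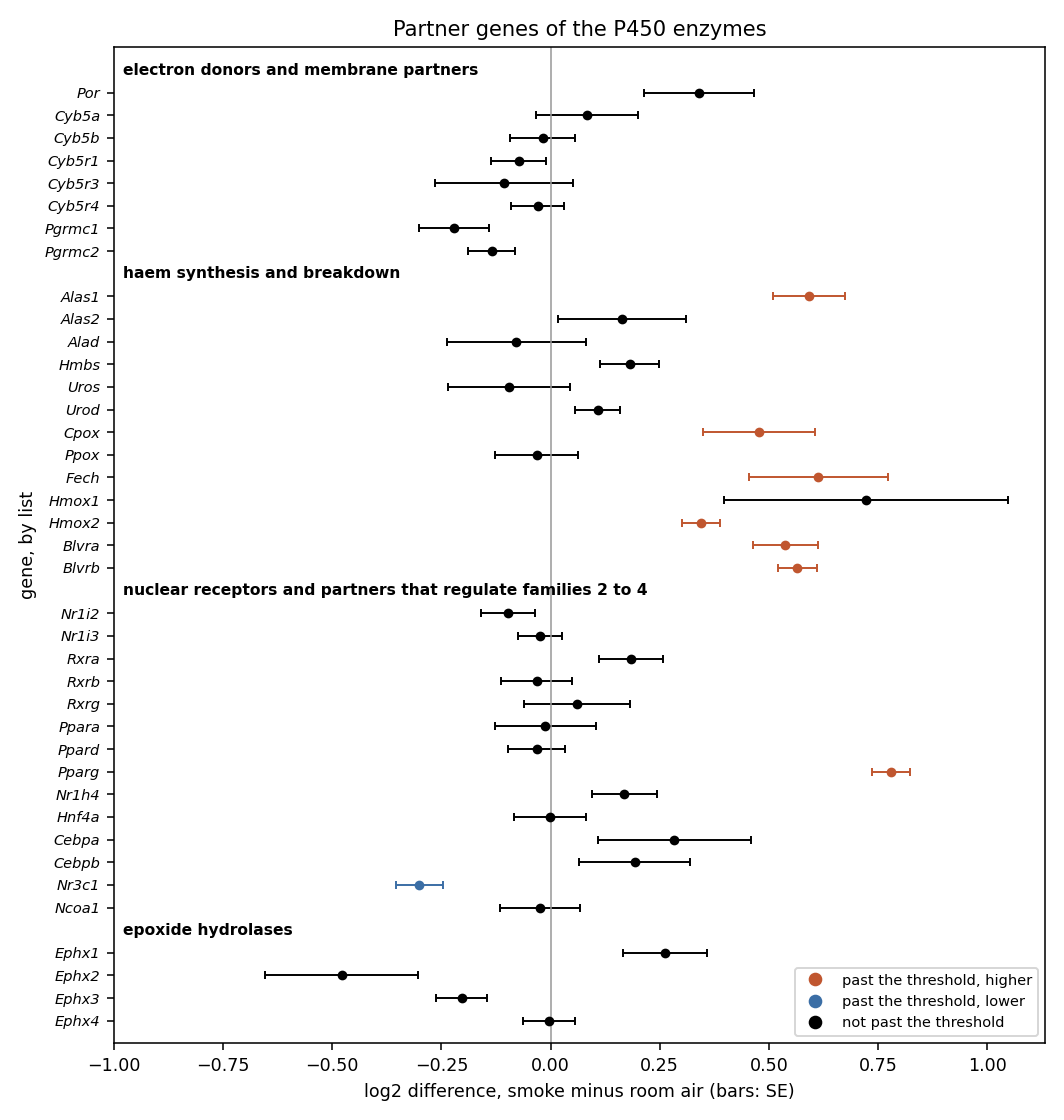
Difference of the log2 ratio, smoke minus room air (horizontal axis), of the 39 partner genes in 4 lists (vertical axis), with SE bars. Coloured points passed the limma threshold, 7 higher in orange and 1 lower in blue, and 6 of the 7 belong to haem synthesis and breakdown.

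Genes of haem synthesis and breakdown included 6 of 13 that rose and 0 that fell, with a median difference of 0.34, beside 4.96% of all genes that rose. Alveolar macrophage markers rose as well (6 of 10, summed red signal 3.21 times as high), and their part in the haem genes was not tested. Among the enzymes that make haem, Alas1, the rate-limiting enzyme outside red cells, rose from 3.06 ± 0.13 to 3.65 ± 0.15 (SD, n = 5), by 0.59 (adjusted p = 0.00126). Cpox rose by 0.48 (adjusted p = 0.0467) and Fech, which inserts the iron, by 0.61 (adjusted p = 0.0408), the latter with adjusted p = 0.0601 with the block. The other 3 belong to haem breakdown, namely Hmox2 at 0.34 (adjusted p = 0.000618), Blvra at 0.54 (0.00111) and Blvrb at 0.57 (2.91e-05). Median centring ended the calls of Hmox2 (0.25, adjusted p = 0.409), Blvra (0.43, 0.132) and Fech (0.51, 0.305). Red alone at the 75th percentile ended those of Hmox2 (0.41, 0.0569), Blvrb (0.52, 0.328), Cpox (0.53, 0.222) and Fech (0.67, 0.197), and red alone after quantile normalization those of Blvrb (0.46, 0.329), Cpox (0.47, 0.0809) and Fech (0.62, 0.18). Over 22 alternatives tested by limma the calls of Cpox and Fech were lost in 12 and 14. The inducible haem oxygenase Hmox1 differed by 0.72 with adjusted p = 0.27 and, with the block, 0.0462. It was -2.02 on smoke array 2, below all room air arrays, and -0.43 to -0.59 on the other smoke arrays, and room air array 1, at -0.64, lay above the other room air arrays. The call of Cpox was lost without room air array 3, 4 or 5 or smoke array 1, 2, 3 or 5 (adjusted p = 0.0846 to 0.11). That of Fech was lost without room air array 2, 4 or 5 or smoke array 1, 2, 4 or 5 (adjusted p = 0.0506 to 0.105).

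Of 14 nuclear receptors and their partners, which set the transcription of many members, Pparg rose and Nr3c1 fell, and Cebpa passed with the slide as a block alone (0.28, adjusted p = 0.477 without it and 0.0315 with it). Pparg, a fatty acid sensor needed for alveolar macrophage development, went from 0.48 ± 0.04 to 1.26 ± 0.05 (SD, n = 5), a difference of 0.78 with adjusted p = 1.76e-06. The glucocorticoid receptor Nr3c1 went from 0.47 ± 0.09 to 0.17 ± 0.05, a difference of -0.30 with adjusted p = 0.00585. Its call was lost with median centring (-0.41, adjusted p = 0.128), in red alone at the 75th percentile (-0.29, 0.3) and after quantile normalization (-0.33, 0.0881), and with the mean of all its probes (-0.18, 0.177). Nr1i2, the pregnane X receptor, differed by -0.10 (adjusted p = 0.49) and Nr1i3, the constitutive androstane receptor, detected on 8 arrays, by -0.02 (0.898).

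Epoxide hydrolases, which open the epoxides that many members form, had 0 of 4 genes past the threshold by limma and 3 at an unadjusted p under 0.05. With the block 3 passed: Ephx1 at 0.26 (adjusted p = 0.159 and 0.0321 with the block), Ephx2, which hydrolyses epoxides of fatty acids, at -0.48 (0.154 and 0.00741) and Ephx3 at -0.20 (0.0616 and 0.0442). Of 18 P450 genes outside families 1 to 4, 2 rose. Tbxas1, the thromboxane synthase, differed by 0.94 (adjusted p = 0.00159), and by 0.64 (0.0785) with the scanner software's ratio. Its red channel differed by 1.53 and its green channel, the reference, by 0.54 (adjusted p = 0.00728 in green), so the ratio does not show the lung signal alone. Cyp7b1, an oxysterol hydroxylase, had 4.50 on room air array 1, above all smoke arrays, and 3.03 to 3.22 on the other room air arrays, and differed by 0.90 (adjusted p = 0.0448). Without room air array 1 the adjusted p was 1.91e-06, and without any 1 of the other 9 arrays it was 0.0715 to 0.111, which ended the call. The call was lost as well with the scanner software's ratio (0.38, adjusted p = 0.697), without background subtraction (0.97, 0.0581), with median centring (0.85, 0.0845) and in red at the 75th percentile (1.12, 0.0509).

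Promoter sequences from RefSeq, build GRCm38.p6, were found for 41 of the 54 members, and Cyp2d22 and Cyp2c23 were not among them. The 250 bases before the start of 3 members that changed are shown 5′ to 3′ so that they can be read beside their differences. Capitals mark matches, on either strand, to GCGTG, the core that the aryl hydrocarbon receptor binds, AGGTCA, a core of many nuclear receptor sites, and TGACNNNGC, a core of antioxidant response elements. The windows are chr4:96591486-96591735 on the minus strand for Cyp2j9, chr17:32536307-32536556 on the plus strand for Cyp4f16 and chr8:45333164-45333413 on the minus strand for Cyp4v3.
Cyp2j9 promoter: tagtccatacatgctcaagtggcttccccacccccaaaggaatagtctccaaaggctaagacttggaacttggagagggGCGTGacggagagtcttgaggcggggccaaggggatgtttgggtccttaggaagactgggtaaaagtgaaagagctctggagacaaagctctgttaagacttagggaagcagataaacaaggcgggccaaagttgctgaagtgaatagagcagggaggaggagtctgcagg
Cyp4f16 promoter: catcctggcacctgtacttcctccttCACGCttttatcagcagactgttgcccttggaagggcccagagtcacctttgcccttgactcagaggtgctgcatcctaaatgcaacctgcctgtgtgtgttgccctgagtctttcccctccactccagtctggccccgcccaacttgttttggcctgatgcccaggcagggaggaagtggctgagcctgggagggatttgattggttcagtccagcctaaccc
Cyp4v3 promoter: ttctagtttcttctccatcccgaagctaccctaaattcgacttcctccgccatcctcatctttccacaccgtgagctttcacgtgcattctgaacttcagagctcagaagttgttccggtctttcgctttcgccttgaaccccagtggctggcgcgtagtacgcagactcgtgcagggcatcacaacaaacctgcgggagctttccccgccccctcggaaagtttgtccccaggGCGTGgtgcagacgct

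Each of the 3 windows held 1 match to GCGTG and 0 to AGGTCA and TGACNNNGC. Over all 32851 promoters of this length 28.2% held GCGTG, 14.0% AGGTCA and 10.2% TGACNNNGC. Over the 47 promoters of the members the counts were 8 (17.0%), 11 (23.4%) and 2 (4.26%). A match describes letters in this window and is neither a site nor a cause, and other motifs were not searched.

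The promoters of Cyp2a4 and Cyp2a5 are shown because this pair had the largest differences and its probes share bases. Aligned with an offset of 1 base, 245 of 249 positions are equal, and the 4 that differ are in capitals. The windows lie on the plus strand at chr7:26306942-26307191 for Cyp2a4 and chr7:26835089-26835338 for Cyp2a5 of GRCm38.p6, and neither held a match to the 3 motifs.
Cyp2a4 promoter: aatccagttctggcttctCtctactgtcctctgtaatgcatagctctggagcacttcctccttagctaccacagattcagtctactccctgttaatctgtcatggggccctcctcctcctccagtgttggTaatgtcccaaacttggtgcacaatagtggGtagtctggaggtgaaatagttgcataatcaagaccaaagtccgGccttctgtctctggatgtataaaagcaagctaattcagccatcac
Cyp2a5 promoter: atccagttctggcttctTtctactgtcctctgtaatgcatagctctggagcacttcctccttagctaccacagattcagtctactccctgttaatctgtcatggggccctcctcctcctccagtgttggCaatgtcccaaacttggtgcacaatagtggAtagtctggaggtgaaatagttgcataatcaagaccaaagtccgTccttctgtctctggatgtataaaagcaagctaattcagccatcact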

How the data were processed

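Lung RNA of 5 smoke-exposed and 5 room air mice was measured on Agilent 2-colour arrays, and groups were taken from the labels. The authors deposited scanner output of Agilent Feature Extraction, version 9.5.3.1 per the file headers and 9.1 per the labels, which holds red and green intensity for 43379 spots that were not controls. Per the file headers the software adds its own ratio of the channels on the log10 scale. The deposited table holds log2 values averaged over both channels, with the groups exchanged: within 0.0001, all 286449 values match the scanner file bearing that replicate number under the opposite group, while 286 match the array's own.

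Mean intensities were corrected with normexp against the median local background (offset 50), control spots were dropped, loess was applied to the ratios of each array, outlier spots (83 to 144 per array) were set missing, and spots of a probe were averaged. The comparison used limma 3.58.1 under R 4.3.3 (lmFit, eBayes), with two-sided p-values adjusted by Benjamini-Hochberg across all probes. Fold changes are antilogs of the differences. No filter on dim probes was applied, and the offset lowers the differences of dim probes. The steps were tested on simulated data.

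Of 41174 probes, 22951 were named through accessions, 6659 by current symbol, 3109 through a synonym, and 8455 kept the name in the files. Of the 80 member probes 14 are listed for more than 1 gene, as is every probe of Cyp2a4, Cyp2c40, Cyp2d9, Cyp3a11 and Cyp4a12a. Probe coordinates are those of the files, and were not placed in exons because no annotation of mm7 was at hand.

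Members, gene lists and alternatives were chosen with earlier results of these data known. Named in the text are all members that passed, the 10 detected members with the largest differences among the rest, the most often detected member of each further subfamily, members with known roles in lung, partner genes that passed, and Por, Nr1i2, Nr1i3, Ephx1 and Ephx2 for their known roles. Cyp3a41a, Cyp4f14, Cyp2b13, Cyp4a31, the 7 members detected on 0 arrays, Hmox1, Cebpa and Ephx3 were named after their values were seen. A set of 28 alternatives changed the test, thresholds, filters, background correction, normalization, channel, probe choice and block, and left out each array. A further alternative, chosen after seeing the data, used only probes listed for 1 gene.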

Additional observations from a re-analysis of the deposited data

Results flagged for a closer look

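In 6 of the 88 groups of 5 arrays examined, the log2 ratio of 1 array lay far from the others of its group, where chance gives about 1 in 20. Among the members, Cyp2u1 was -0.23 on room air array 4, below the next lowest at -0.04. Cyp4b1 was 5.13 on the same array, below the next lowest at 5.74. Cyp2r1 was -0.058 on smoke array 5, below 0.12. Among the partner genes and other P450 families, Cyp7b1 was 4.50 on room air array 1, above 3.22, and Por was 0.26 on that array, below 0.90. Tbxas1 was 2.96 on smoke array 4, below 3.46. What sets these arrays apart in these genes was not tested.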

How the results depend on the processing

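Over 606 values of the 28 named members under the alternatives tested by limma, 527 kept their direction and their side of the threshold, 29 of 12 genes had the other sign without a call, 21 lost a call and 27 gained one. These counts, and those of alternatives by gene above, leave out the deposited table. With the scanner software's ratio Cyp2a4 was -0.10, Cyp2a5 -0.20 and Cyp4f15 0.10. The remaining 2 had the other sign and passed: Cyp4b1 was -0.66 in red after quantile normalization and -0.63 in red at the 75th percentile. For the 15 named partner genes, 274 of 328 values kept both, 1 had the other sign without a call, 49 lost a call, 4 gained one and 0 changed direction with a call. The counts that moved most are given by alternative, and the cause was not tested.

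The exact Wilcoxon test called 0 members (0 higher, 0 lower), 0 probes and 0 partner genes after adjustment. At an unadjusted p under 0.05 it had 8 members (14.8%), beside 14.6% of all genes. Its lowest adjusted p over all genes was 0.115, so it could call none and is left out of the counts of lost calls. With the slide as a block there were 12 members, 7 higher and 5 lower, and 5019 probes against 2906. The scanner software's ratio gave 1 member lower and 6 partner genes, where 10 were called with other P450 families counted. Ratios scaled between arrays gave 4 higher, with 67.6% of calls over all genes higher. Median centring gave 0 higher, 1434 probes and 5 partner genes. Red at the 75th percentile gave 1759 probes and 6 partner genes, and red after quantile normalization 9 members, 4 higher and 5 lower. The deposited table with its labels, in which the groups are exchanged, covered 35 members and 17856 genes. It gave 0 members (0 higher, 0 lower), 16 probes and 1 partner gene. Its median was 0.17 over the members and 0.081 over all genes, and both signs turn when the groups are exchanged back. At an adjusted p under 0.01 there were 2 members, 0 lower and 1428 probes, and with a fold change over 1.5 there were 1 member (0 higher, 1 lower), 790 probes and 5 partner genes.

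Without each array in turn, members ranged from 3 to 8, higher ones from 2 to 5, lower ones from 1 to 4, the median from -0.0195 to 0.00871, probes from 2102 to 3660 and partner genes from 7 to 13. Without room air array 1 there were 8 members and 13 partner genes, beside 10.4% of all genes, and without room air array 2 or 3 or smoke array 5 there were 3 members, beside 6.43, 6.17 and 6.09% of all genes, against 8.23% with all arrays. Members detected on all 10 arrays numbered 32 by their brightest probe, and also when any probe of the gene could count, and a dim signal, 1.68 to 2.82 times the background, limits what can be detected. With only probes listed for 1 gene, 49 members were tested and 5 called.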
